A study of Mus musculus with 16 samples.

Results

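Kainate receptors and the orphan delta receptors are described here through 8 genes, chosen by name: the kainate receptor subunits Grik1, Grik2, Grik3, Grik4 and Grik5, their auxiliary subunits Neto1 and Neto2, and the delta receptor subunit Grid1. All 8 were found among the 55385 genes of the deposited tables, and all 8 were among the 17222 genes that passed the filter on low counts. They were measured by RNA sequencing in 16 libraries from primary hippocampal cultures of newborn C57Bl/6N mice, infected with recombinant adeno-associated viruses that carry a short hairpin RNA under the U6 promoter and GFP under a chicken β-actin promoter. The 4 groups of 4 libraries were Control-shRNA at 0 h of bicuculline (baseline), Control-shRNA after 4 h of bicuculline, Dnmt3a1-shRNA2 at baseline, and Dnmt3a1-shRNA2 after 4 h of bicuculline. The labels name the knockdown shDnmt3a1 without a construct number, which comes from the account of the sequencing experiment in the study. Bicuculline blocks GABA-A receptors, the main inhibitory receptors of these cultures, and induces bursts of action potentials. All groups share the virus, its GFP and the culture conditions, and no uninfected culture was analysed here.

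The 8 genes lie on 8 chromosomes of GRCm38 and are all annotated as protein-coding. Grik1 lies at chr16:87895900-88290265, Grik2 at chr10:49094833-49788766, Grik4 at chr9:42518135-42944493, Grik5 at chr7:25009849-25072346 and Neto2 at chr8:85636588-85700924, all on the minus strand. Grik3 lies at chr4:125490700-125714173, Neto1 at chr18:86394952-86506718 and Grid1 at chr14:34820108-35583379, on the plus strand. The longest of them is Grid1, with a span of 763272 bp, and the shortest is Grik5, with 62498 bp. In 4 of the genes, annotated exons share bases with another gene: Gm24420 in Grik4 and Gm27617 in Grid1 on the same strand, AC113599.1 in Neto1 and Mir8109 in Neto2 on the opposite strand. Reads from bases shared on the same strand cannot be told apart by strand. Those from bases shared on opposite strands can be only where the counting uses strand, which the sources used here do not state.

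Kainate receptors are tetrameric glutamate-gated cation channels. Grik1, Grik2 and Grik3 encode the subunits GluK1, GluK2 and GluK3, which can form channels on their own, whereas Grik4 and Grik5 encode the high-affinity subunits GluK4 and GluK5, which need one of the others to reach the membrane. Neto1 and Neto2 are single-pass membrane proteins that bind kainate receptors and slow their gating. In the hippocampus the receptors act on both sides of the synapse and are best known at the mossy fibre synapse and on interneurons. Grid1 encodes GluD1, which resembles a glutamate receptor in sequence but works at synapses as a bridge to presynaptic neurexins through secreted cerebellins. Dnmt3a methylates cytosines, most often at CpG dinucleotides.

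RefSeq promoter entries on GRCm38.p6 were used for 5 of the 8 genes, Grik2, Grik3, Grik4, Grik5 and Neto2, with 2 entries for Neto2. Grik1, Neto1 and Grid1 are not covered by this promoter account. It therefore gives no CpG count or motif result for Neto1, whose RNA was lower in Dnmt3a1-shRNA2. The 250 bases before the start are shown for Neto2, whose RNA rose with bicuculline, and for Grik5, the most abundant of the 8, so that the CpG sites open to a DNA methyltransferase can be seen. Capitals mark CpG dinucleotides, and both sequences read 5′ to 3′ on the minus strand, Neto2 from chr8:85700925-85701174 and Grik5 from chr7:25072370-25072619.
Neto2: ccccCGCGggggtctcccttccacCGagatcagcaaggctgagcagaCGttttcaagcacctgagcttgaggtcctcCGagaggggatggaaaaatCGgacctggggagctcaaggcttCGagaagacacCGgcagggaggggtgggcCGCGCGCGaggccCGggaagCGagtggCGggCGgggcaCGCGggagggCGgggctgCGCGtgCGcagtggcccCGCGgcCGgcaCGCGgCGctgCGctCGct
Grik5: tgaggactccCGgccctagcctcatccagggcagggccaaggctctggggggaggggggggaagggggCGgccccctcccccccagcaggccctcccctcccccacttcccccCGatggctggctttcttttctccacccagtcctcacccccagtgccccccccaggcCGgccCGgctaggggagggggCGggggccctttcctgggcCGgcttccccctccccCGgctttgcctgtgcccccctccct
The Neto2 stretch holds 30 CpG sites and the Grik5 stretch 8. The same stretch holds 42 in Grik3, 36 in Grik4 and 20 in Grik2, while a second, internal Neto2 start has 0. Over all 32851 promoters of this length, the median was 6 CpG sites and the quartiles were 2 and 16. Methylation itself was not measured in these libraries. The motifs searched on both strands of the 300 bases around each start, the last 50 of which lie past it, were the CRE TGACGTCA, present in 1.79% of all promoters, its core TGACG, which is part of the CRE and present in 20.8%, the AP-1 site TGANTCA in 7.81%, the EGR site GCGTGGGCG in 0.612%, and the E-box CACGTG in 7.15%. Among the 6 entries of these genes there was 1 match, a TGACG in Grik2.

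The library totals lay between 28912697 and 29586355 counts, so depth was nearly the same in all groups. Levels are given as CPM, counts scaled to the library total and by TMM, a library scaling of edgeR, and changes are log2 fold changes of edgeR's quasi-likelihood test with their standard error (SE) and an adjusted p over the 17222 genes. A gene passed the test at an adjusted p under 0.05, and was called when its log2 fold change was also beyond 0.5 in either direction. Dnmt3a is the gene of the targeted isoform Dnmt3a1 and of Dnmt3a2. Its count here pools the isoforms, so it does not show which of them fell. Dnmt3a had 312 ± 13.8 CPM (SD, n = 4) in Control-shRNA and 44.5 ± 3.66 in Dnmt3a1-shRNA2 at baseline. With bicuculline it had 327 ± 11.8 and 45.3 ± 1.72 CPM, and over both conditions the libraries ran from 293 to 338 CPM in Control-shRNA and from 39.4 to 48.0 CPM in Dnmt3a1-shRNA2. The cultures carried neuronal markers, as their label says. The summed level of 5 general neuronal markers lay between 3227 and 4351 TPM, a unit scaled for transcript length and library total, that of 5 microglial markers between 1.35 and 5.08 TPM, and that of 5 astrocyte markers between 115 and 330 TPM. These are bulk cultures, so a change in the number of cells of a type and a change of RNA per cell cannot be told apart.

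The most abundant of the 8 messages per unit of length was Grik5. Its mean TPM was 178 ± 11.9 (SD, n = 4 here and for the other group values) in Control-shRNA and 163 ± 4.95 in Dnmt3a1-shRNA2 at baseline, and 152 ± 16.5 and 128 ± 10.8 with bicuculline. In each of the 4 groups the lowest Grik5 library lay above the highest library of the next gene. Neto1 and Neto2 followed, with group means between 55.8 and 85.1 TPM for Neto1 and between 60.6 and 81.5 TPM for Neto2. Their order differed between the shRNAs. In Control-shRNA with bicuculline, Neto1 (79.6 to 91.9 TPM) lay above Neto2 (72.2 to 78.3 TPM) with no overlap, while in Dnmt3a1-shRNA2 with bicuculline Neto2 (77.1 to 87.9 TPM) lay above Neto1 (64.5 to 71.6 TPM) with no overlap. In both baseline groups the 2 ranges overlapped.

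Grid1, Grik2 and Grik1 formed a middle tier with group means between 27.9 and 38.4 TPM, and neighbours among these 3 overlapped in every group. The lowest tier was Grik3 and Grik4, with means between 16.8 and 24.6 TPM, which overlapped each other in every group. In both baseline groups the ranges of Grik1 and Grik3 met as well, so that the border between the tiers was not sharp there. Among Grik1 to Grik5, Grik3 had the widest SD relative to its mean in each of the 4 groups, and ran from 19.2 to 31.3 TPM in Control-shRNA at baseline, where Grik4 ran from 22.0 to 24.9 TPM.

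**Figure D1:**
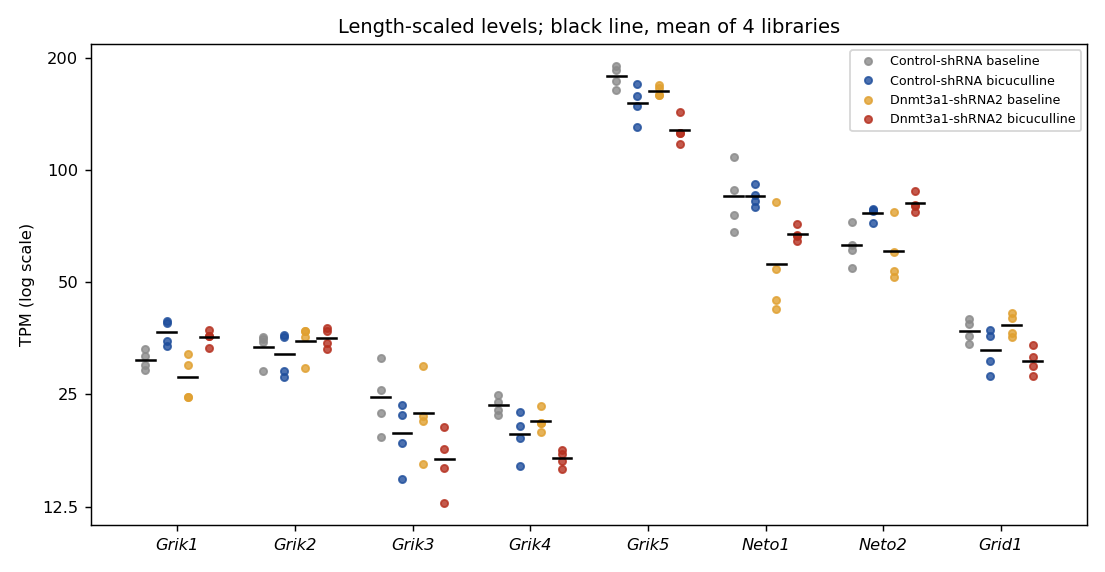
TPM of the 8 genes on a log axis, with 1 point per library, 1 colour per group and a black line at the mean of the 4 libraries. Grik5 lies above all other genes in each group, with means from 128 to 178 TPM, and Neto1 and Neto2 lie between it and the 5 lower genes.

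Taking the TPM of Grik1 to Grik5 in a library as the whole, Grik5 made up 61.3% ± 1.99 in Control-shRNA and 60.6% ± 2.23 in Dnmt3a1-shRNA2 at baseline. With bicuculline its share was 58.3% ± 3.07 and 55.0% ± 1.63. The share of Grik1 was 10.7% ± 0.829 and 10.3% ± 0.992 at baseline against 14.1% ± 0.908 and 15.3% ± 0.733 with bicuculline, with no overlap between baseline (9.44% to 11.9%) and bicuculline (12.8% to 15.9%). The highest mean share of Grik2 was 15.3% ± 1.56, in Dnmt3a1-shRNA2 with bicuculline, and its lowest 11.5% ± 0.950, in Control-shRNA at baseline. Grik3 and Grik4 held between 7.16% and 8.42% on average in every group. The summed TPM of the 5 subunits was 291 ± 16.1 and 269 ± 13.2 at baseline, and 260 ± 17.2 and 233 ± 13.1 with bicuculline, in Control-shRNA and Dnmt3a1-shRNA2. On log2(TPM + 1) the median of all tested genes also moved with bicuculline, by -0.14 in Control-shRNA and -0.13 in Dnmt3a1-shRNA2. The lower TPM with bicuculline, in this sum and for Grik5 above, is not corrected for that shift. Without the scaling for length, by estimated counts, Grik5 held 48.9% to 52.7% and Grik3, not Grik1 or Grik2, was in second place, with 16.3% to 18.5%.

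**Figure D2:**
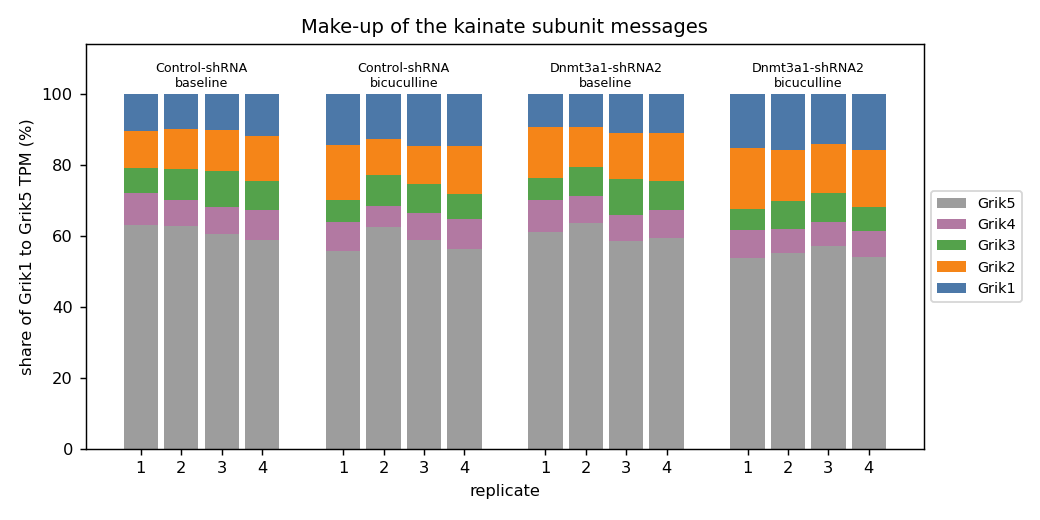
Share of each kainate subunit gene in the summed TPM of Grik1 to Grik5, 1 bar per library, in the 4 groups. Grik5 takes more than any other gene in all 16 bars, and the Grik1 segment is wider in the 8 bars with bicuculline (12.8% to 15.9%) than in the 8 at baseline (9.44% to 11.9%).

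The first comparison asked which of the 8 genes responded to 4 h of bicuculline. In Control-shRNA cultures, 2 of the 8 passed the test, Grik1 and Neto2, and both rose. Of all genes tested, 41.4% passed in this contrast, 19.5% upward and 21.9% downward, and the groups did not overlap for 39.7%. They also did not overlap for Grik1 and Neto2, and overlapped for the other 6 genes. Neither gene was called, since both changes lay just under 0.5, while 21.9% of all genes were called. The median log2 fold change of the 8 genes was -0.01, beside 0.01 for all genes.

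Grik1 encodes GluK1, the subunit best known from hippocampal interneurons. In Control-shRNA its baseline libraries had 47.3, 46.0, 46.9 and 51.8 CPM, and its bicuculline libraries had 65.5, 62.3, 68.0 and 69.3 CPM. In Dnmt3a1-shRNA2 the libraries had 45.4, 42.0, 49.7 and 50.3 CPM at baseline and 68.7, 70.5, 63.1 and 70.9 CPM with bicuculline. All 8 libraries with bicuculline thus lay above all 8 at baseline, irrespective of the shRNA. Grik1 was 1.38-fold higher with bicuculline in Control-shRNA, a log2 fold change of 0.47 (SE 0.07, adjusted p = 1.93e-05). In Dnmt3a1-shRNA2 it was 1.46-fold higher, with 0.54 on the log2 scale (SE 0.07, adjusted p = 2.70e-06), and there it was called.

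Neto2 encodes an auxiliary subunit that binds kainate receptors and the neuronal potassium-chloride cotransporter. Its Control-shRNA libraries had 129.8, 129.3, 146.4 and 138.0 CPM at baseline and 211.8, 178.2, 186.0 and 192.2 CPM with bicuculline. In Dnmt3a1-shRNA2 it had 135.3, 128.9, 163.8 and 142.4 CPM at baseline and 255.6, 215.0, 187.9 and 217.7 CPM with bicuculline. As for Grik1, the lowest library with bicuculline lay above the highest at baseline in both shRNAs. The widest group was Dnmt3a1-shRNA2 with bicuculline, in which replicate 1 was the highest and replicate 3 the lowest. Neto2 was 1.41-fold higher with bicuculline in Control-shRNA (log2 fold change 0.50, SE 0.09, adjusted p = 2.25e-04) and 1.54-fold higher in Dnmt3a1-shRNA2 (0.62, SE 0.09, adjusted p = 1.98e-05). It was called in the latter.

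In Control-shRNA, whether the fold threshold was met turned on single libraries. Neto2 would be called without baseline replicate 3 (0.54) or 4 (0.51), or without bicuculline replicate 2 (0.53) or 3 (0.51), and Grik1 without baseline replicate 4 (0.50). In Dnmt3a1-shRNA2, Grik1 fell just under the threshold without baseline replicate 2 (0.49). The adjusted p passed for both genes in both shRNAs whichever library was left out, at most 0.00140. On log2(TPM + 0.1) with limma, the Control-shRNA changes were smaller, 0.24 for Grik1 (adjusted p = 0.0590) and 0.29 for Neto2 (adjusted p = 0.0592), and no longer passed. On that scale the median of all tested genes moved by -0.19 in this contrast, and the 2 changes are not corrected for that shift.

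**Figure D3:**
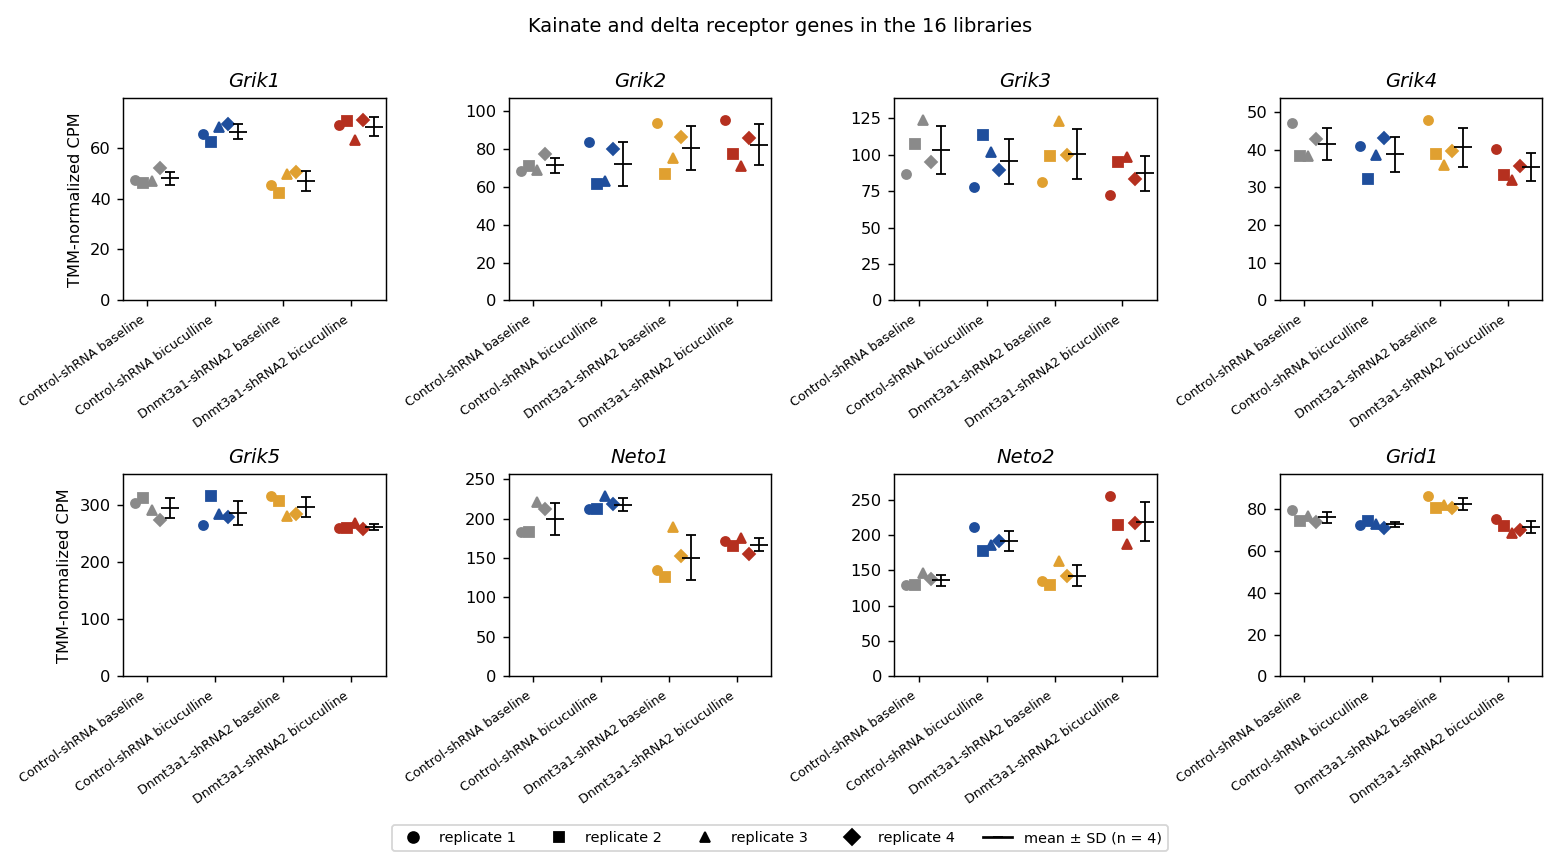
TMM-normalized CPM of the 8 genes, 1 panel per gene with its axis from 0, showing the 4 replicates of each group by symbol and the mean ± SD beside them. Grik1 and Neto2 lie higher in both bicuculline groups than in both baseline groups, and Neto1 lies lower in the Dnmt3a1-shRNA2 groups, with 1 high replicate at baseline (189.8 CPM).

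The remaining channel-forming subunits did not pass the test with bicuculline. Grik2, which encodes the main pore-forming subunit of mossy fibre kainate receptors, had a log2 fold change of 0.01 in Control-shRNA and 0.03 in Dnmt3a1-shRNA2, with intervals of 1.96 SE from -0.22 to 0.24 and from -0.20 to 0.26. Its libraries ran from 61.5 to 95.5 CPM and the sign of its change in Control-shRNA depended on the scaling, as given in the closing section. Grik3 had -0.11 (-0.39 to 0.16) and -0.21 (-0.48 to 0.07). These intervals come from the fit without the replicate number. They leave room for a decrease of either gene of about the size by which Grik5 fell, and for Grik3 of more. In Dnmt3a1-shRNA2, Grik3 passed downward when the replicate number was fitted as a block, a setting given in the closing section.

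The high-affinity subunits had lower means with bicuculline. Grik4 had 41.6 ± 4.24 CPM at baseline and 38.7 ± 4.72 with bicuculline in Control-shRNA, and 40.5 ± 5.13 against 35.3 ± 3.64 in Dnmt3a1-shRNA2. Neither change passed (log2 fold changes -0.10 and -0.20, adjusted p = 0.472 and 0.139). Grik4 passed downward in both shRNAs with library sizes only and on log2(TPM + 1) and log2(TPM + 0.1). Those settings do not correct for the shift of all genes. In Dnmt3a1-shRNA2 it also passed with the replicate block (edgeR, adjusted p = 0.0146), a setting given in the closing section. Grik5 did not pass in Control-shRNA, where its libraries had 303.8, 311.7, 290.3 and 272.9 CPM at baseline and 265.3, 315.7, 284.5 and 278.2 CPM with bicuculline. In Dnmt3a1-shRNA2 it had 315.3, 307.1, 279.6 and 283.3 CPM at baseline and 259.5, 258.7, 268.3 and 258.3 CPM with bicuculline, and there the 2 groups did not overlap. Its log2 fold change was -0.04 (SE 0.06, adjusted p = 0.615) in Control-shRNA and -0.18 (SE 0.06, adjusted p = 0.0224) in Dnmt3a1-shRNA2. The latter lay near the threshold: it kept its direction but no longer passed without Dnmt3a1-shRNA2 baseline replicate 1 (-0.15, adjusted p = 0.0737) or without replicate 2 (-0.17, adjusted p = 0.0521).

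Grid1, the delta receptor subunit, passed where Grik5 did. In Control-shRNA it had 79.6, 74.5, 76.5 and 73.7 CPM at baseline and 72.3, 74.5, 72.8 and 71.1 CPM with bicuculline, and the groups overlapped. In Dnmt3a1-shRNA2 it had 86.4, 80.8, 82.1 and 80.4 CPM at baseline and 75.5, 72.2, 68.5 and 69.9 CPM with bicuculline, with every bicuculline library below every baseline library. The log2 fold changes were -0.07 (SE 0.05, adjusted p = 0.308) and -0.20 (SE 0.05, adjusted p = 0.00210).

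In Dnmt3a1-shRNA2 as a whole, 4 of the 8 genes passed with bicuculline, 2 of them upward (Grik1 and Neto2, both called) and 2 downward (Grik5 and Grid1, neither called). Among all genes 46.0% passed, 20.8% upward and 25.2% downward, and 25.8% were called, 12.6% upward. The groups did not overlap for these same 4 members, as for 40.4% of all genes. The share of members that passed was thus close to that of all genes. The scaling bears on the downward changes: with library sizes alone the median of all genes moved to -0.15 in Control-shRNA and -0.16 in Dnmt3a1-shRNA2, and Grik4, Grik5 and Grid1 then passed downward in Control-shRNA too.

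Whether the shRNA altered the response was tested by the interaction. None of the 17222 genes passed it in edgeR (0%), with 852 at an unadjusted p under 0.05, none of which is among the 8 members. None passed with voom and limma either (858 unadjusted), and 18 passed with DESeq2 (775 unadjusted), again without a member. For the 8 genes the difference of the log2 fold changes lay between -0.14 and 0.12. Grik1 and Neto2 had 0.08 (-0.11 to 0.26, 1.96 SE) and 0.12 (-0.13 to 0.37), and Grik5 and Grid1 had -0.14 (-0.31 to 0.03) and -0.14 (-0.27 to -0.004). The interval of Grid1 just leaves out 0, but its multiplier of 1.96 takes no account of the 12 residual degrees of freedom. By the test itself neither Grik5 nor Grid1 passed, so their values in the 2 shRNAs are not shown to differ.

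**Figure D4:**
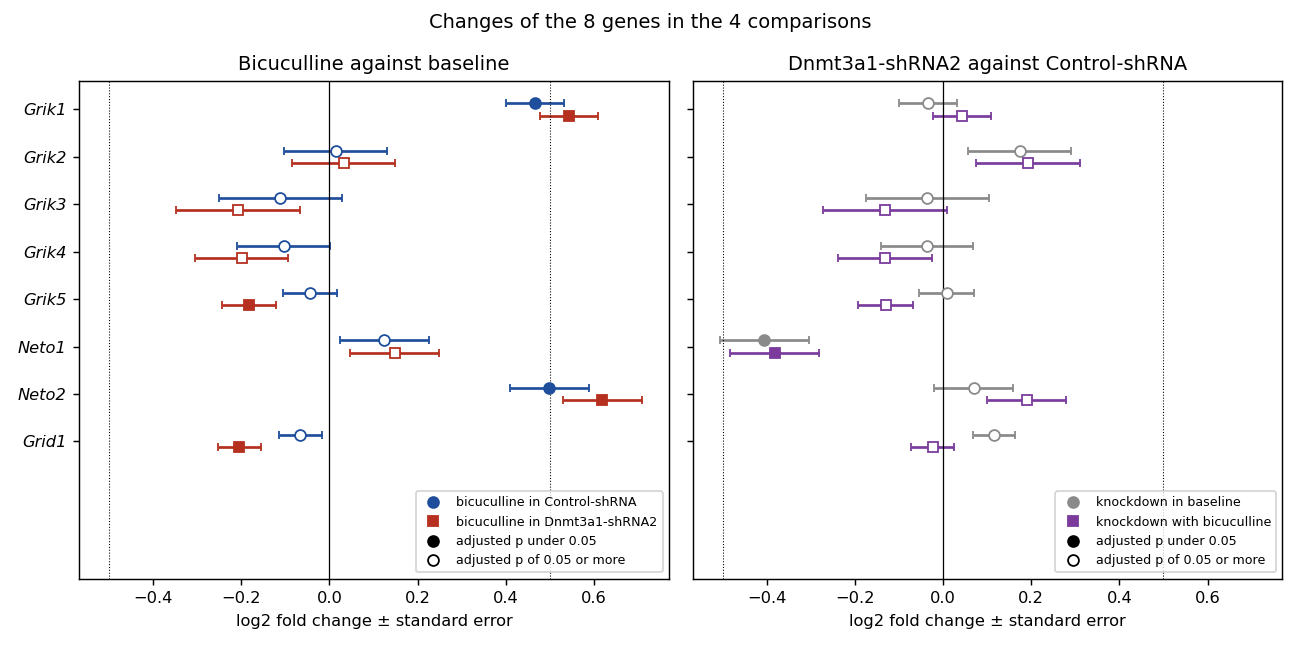
Log2 fold changes of the 8 genes with bars of 1 SE, for bicuculline against baseline in each shRNA (left) and for Dnmt3a1-shRNA2 against Control-shRNA in each condition (right). Filled symbols have an adjusted p under 0.05 and dotted lines stand at 0.5 in either direction. Grik1 and Neto2 are filled on the right of zero with bicuculline, and Neto1 is the filled gene under the knockdown.

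The second comparison asked which of the 8 genes differed between the shRNAs. Neto1 was the single member that passed, in both conditions, and it was lower in Dnmt3a1-shRNA2. At baseline 16.3% of all genes passed, 8.12% upward and 8.19% downward, and with bicuculline 17.7% did, 7.69% upward and 9.99% downward. Neto1 encodes an auxiliary subunit of kainate receptors that also associates with NMDA receptors. At baseline its Control-shRNA libraries had 182.4, 182.7, 220.6 and 212.2 CPM and its Dnmt3a1-shRNA2 libraries 134.8, 125.3, 189.8 and 152.4 CPM. The groups overlapped through Dnmt3a1-shRNA2 replicate 3, which lay above 2 control libraries. With bicuculline the Control-shRNA libraries had 211.5, 211.8, 228.8 and 217.9 CPM and the Dnmt3a1-shRNA2 libraries 171.8, 165.4, 174.7 and 155.6 CPM, with no overlap.

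Neto1 fell by 24.5% at baseline in Dnmt3a1-shRNA2, a log2 fold change of -0.41 (SE 0.10, adjusted p = 0.0104), and the log2 fold change with bicuculline was -0.38 (SE 0.10, adjusted p = 0.0142). It was not called in either, whereas 5.83% and 5.89% of all genes were. Without the high Dnmt3a1-shRNA2 baseline replicate 3 the baseline value was -0.54 (adjusted p = 2.88e-04), beyond the fold threshold, and over all libraries left out in turn the adjusted p was at most 0.0407 at baseline and 0.0460 with bicuculline. On log2(TPM + 1) with limma the change with bicuculline was -0.33 and did not pass (adjusted p = 0.230). With bicuculline Neto1 had a log2 fold change of 0.12 in Control-shRNA (adjusted p = 0.355) and of 0.15 in Dnmt3a1-shRNA2 (adjusted p = 0.253). The latter became 0.28 (adjusted p = 0.00994) without that same replicate.

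Of the other 7 genes none passed between the shRNAs. Their log2 fold changes lay between -0.04 and 0.17 at baseline and between -0.13 and 0.19 with bicuculline. Grid1 was the single gene of the 8 whose groups did not overlap at baseline, with 76.1 ± 2.62 CPM in Control-shRNA and 82.4 ± 2.75 in Dnmt3a1-shRNA2 (0.12, SE 0.05, adjusted p = 0.120), as for 19.9% of all genes. With bicuculline Neto1 alone had groups apart, as for 20.9% of all genes. Neto2 had 0.07 at baseline and 0.19 with bicuculline (adjusted p = 0.662 and 0.159). For Grik1 the intervals of 1.96 SE, -0.16 to 0.10 at baseline and -0.09 to 0.17 with bicuculline, do not reach the size of its change with bicuculline.

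The 2 auxiliary subunits passed in different comparisons, and their ratio within each library was compared. The log2 ratio of Neto2 to Neto1 in CPM was -0.55 ± 0.07 in Control-shRNA at baseline, -0.18 ± 0.13 in Control-shRNA with bicuculline, -0.07 ± 0.11 in Dnmt3a1-shRNA2 at baseline and 0.39 ± 0.20 in Dnmt3a1-shRNA2 with bicuculline. It was higher with bicuculline by 0.37 in Control-shRNA and by 0.45 in Dnmt3a1-shRNA2, and higher in Dnmt3a1-shRNA2 by 0.48 at baseline and by 0.57 with bicuculline, with no overlap in any of the 4 comparisons. The two-sided exact permutation test gave p = 0.0286 for each, the smallest that 4 against 4 libraries allow, and after adjustment over the 16 ratio tests p = 0.0762, which misses the threshold. On log2(TPM + 0.1) the rises with bicuculline were smaller, 0.28 in Control-shRNA and 0.12 in Dnmt3a1-shRNA2. The exact permutation test gave adjusted p = 0.114 and 0.4 for these. Between the shRNAs the ratio on that scale differed by 0.58 at baseline and 0.42 with bicuculline (same test, adjusted p = 0.114 for both). The comparisons share groups and are not independent of each other or of the tests of the single genes.

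The ratio of Grik1 to Grik2, a pair of channel-forming subunits, was higher with bicuculline by 0.46 in Control-shRNA and by 0.51 in Dnmt3a1-shRNA2 on the log2 scale. Both gave an exact permutation p = 0.0286 (adjusted p = 0.0762), with the same limit as for Neto2 to Neto1. In Dnmt3a1-shRNA2 against Control-shRNA it differed by -0.20 at baseline (exact permutation p = 0.0571, adjusted p = 0.131) and by -0.15 with bicuculline (p = 0.286, adjusted p = 0.559), and neither passed. Its mean was -0.57 ± 0.04 and -0.77 ± 0.19 at baseline, in Control-shRNA and Dnmt3a1-shRNA2, and -0.11 ± 0.21 and -0.26 ± 0.15 with bicuculline. The ratios Grik4 to Grik5 and Grik3 to Grik2 gave exact permutation p-values between 0.314 and 0.971 in the 4 comparisons.

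**Figure D5:**
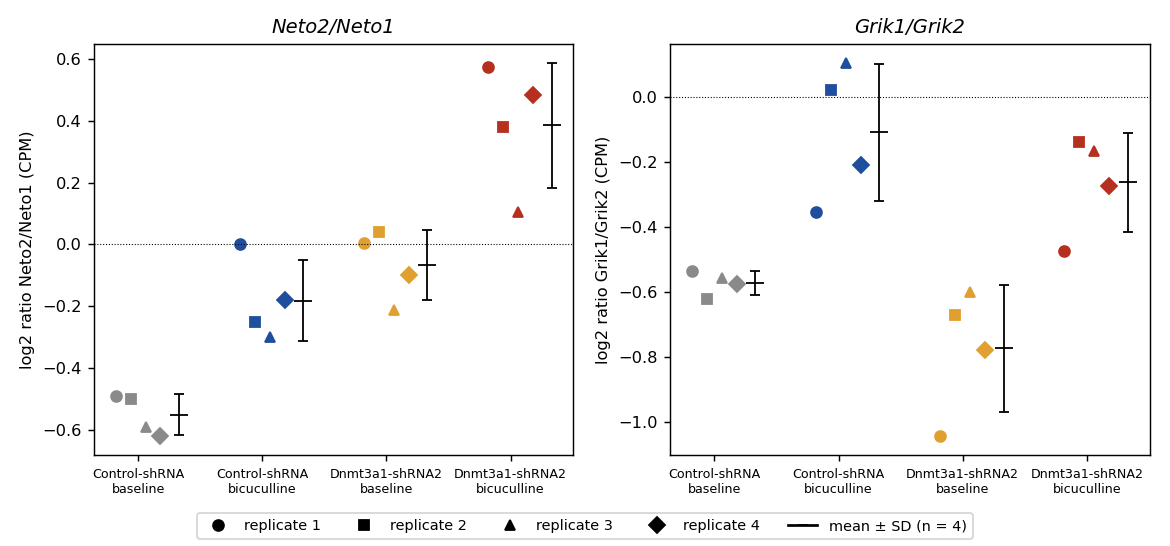
Log2 ratios of CPM within each library, Neto2 to Neto1 (left) and Grik1 to Grik2 (right), for the 4 replicates of each group with the mean ± SD. The Neto2 to Neto1 ratio goes from -0.55 in Control-shRNA at baseline to 0.39 in Dnmt3a1-shRNA2 with bicuculline, with the other groups between them.

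Some markers of GABAergic and of excitatory neurons also passed in some of these comparisons. Of 6 markers of GABAergic neurons, 5 passed upward with bicuculline in each shRNA, among them Gad1, a GABA-synthesizing enzyme (log2 fold change 0.61 in Control-shRNA and 0.73 in Dnmt3a1-shRNA2), and Lhx6, a transcription factor of these neurons, did not pass (0.16 and 0.12). Their summed level ran from 2377 to 2770 TPM at baseline and from 2896 to 4007 TPM with bicuculline in Control-shRNA, and from 1599 to 2192 TPM and from 2511 to 3146 TPM in Dnmt3a1-shRNA2. At baseline, 2 of the 6, Sst and Gad1, passed downward in Dnmt3a1-shRNA2 (-0.52 and -0.42), and with bicuculline none passed between the shRNAs (-0.29 to 0.02). Of all genes, 19.5% in Control-shRNA and 20.8% in Dnmt3a1-shRNA2 passed upward with bicuculline, and 21.9% and 25.2% downward. Between the shRNAs, 8.12% passed upward and 8.19% downward at baseline, and 7.69% and 9.99% with bicuculline. In the GABAergic list 5 markers rose where Grik1 and Neto2 rose. At baseline 2 fell where Neto1 was lower, while the other 4 did not pass there. With bicuculline Neto1 was lower as well, and no marker of this list passed. None of its markers was at 0 in all libraries, and its part in these results was not tested. Of 6 excitatory markers 2 passed upward and 1 downward with bicuculline in each shRNA, and their summed level ran from 1590 to 1689 TPM at baseline and from 1207 to 1424 TPM with bicuculline in Control-shRNA, and from 1349 to 1548 TPM and from 1035 to 1349 TPM in Dnmt3a1-shRNA2. The baseline ranges of the shRNAs did not overlap in this sum, in which Dnmt3a1-shRNA2 was lower, while of the single excitatory markers 1 passed between the shRNAs, upward, in each condition. The part of these markers in the results was not tested either.

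The genes known to act with these receptors were read from a list of 24, of which 23 were tested and Klhl17 was not. With bicuculline in Control-shRNA, 10 passed upward and 3 downward, and 5 were called, all upward, where 41.4% of all genes passed and 21.9% were called. The most changed was C1ql3, a secreted C1q-like protein of the family whose members C1ql2 and C1ql3 bind kainate receptors at mossy fibre synapses. C1ql3 rose from 60.4 ± 5.86 to 182.9 ± 26.7 CPM (log2 fold change 1.60) and C1ql2 from 4.73 ± 0.632 to 10.4 ± 0.455 CPM (1.13). The scaffold gene Dlg1 rose by 0.97, the RNA-editing gene Adar by 0.68 and Cbln2, a cerebellin ligand of delta receptors, by 0.63. The median of the 23 was 0.22, and 0.01 for all genes.

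In Dnmt3a1-shRNA2, 10 of the 23 partners passed upward and 4 downward with bicuculline, and 5 and 3 were called, where 46.0% of all genes passed and 25.8% were called. C1ql3 rose from 87.5 ± 7.81 to 239.8 ± 24.6 CPM (1.45) and C1ql2 by 1.11, Dlg1 rose by 1.22 and Adar by 0.78. Pias3, a SUMO ligase, fell by 0.58 and Senp1, a SUMO protease, fell by 0.56. SUMOylation is known as a trigger of GluK2 internalization. The median of the list was 0.13, and -0.01 for all genes.

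Between the shRNAs 6 of the 23 partners passed at baseline and 7 with bicuculline, where 16.3% and 17.7% of all genes did. At baseline 5 passed upward and 1 downward, and 3 were called. Among these, C1ql3 (0.54) was higher in Dnmt3a1-shRNA2, and Dlg4, which encodes the scaffold PSD-95, was lower, at 421 ± 17.5 against 670.8 ± 17.0 CPM (-0.67, adjusted p = 2.48e-07). With bicuculline 4 passed upward and 3 downward, and Dlg4 alone was called, at 464 ± 17.8 against 786 ± 47.8 CPM (-0.76, adjusted p = 5.52e-08). The list medians were -0.02 at baseline and -0.04 with bicuculline, beside 0.01 and -0.01 for all genes.

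Of the 11 AMPA and NMDA receptor subunit genes, the other ionotropic glutamate receptors, 1 passed upward and 2 downward with bicuculline in Control-shRNA, and 2 upward and 1 downward in Dnmt3a1-shRNA2, where 41.4% and 46.0% of all genes passed. Between the shRNAs, 1 passed upward at baseline, and 1 upward and 1 downward with bicuculline, where 16.3% and 17.7% of all genes passed.

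The genes whose log2 CPM ran closest to that of the called members over the 16 libraries were sought among 13879 genes of at least 1 CPM on average, by the root mean square difference after centring. For Grik1 they were Nrd1 (0.07), Mia2 (0.07) and Tbc1d9 (0.07). For Neto2 they were Zfp869 (0.07), Magi3 (0.09) and Ahcyl1 (0.09). Tbc1d9 changed by 0.47 and 0.54 with bicuculline in Control-shRNA and Dnmt3a1-shRNA2, and Magi3 by 0.45 and 0.61, close to the changes of the members they were matched to. These lists were picked for likeness and describe the libraries only.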

How the data were processed

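RNA of 16 libraries was sequenced as paired-end reads. Per the labels and the methods, the authors trimmed the reads with Trim Galore 0.6.4 and quantified them with kallisto (the labels give version 0.4.6) on GRCm38.p6. The authors deposited an estimated count per gene, not scaled for depth or length, and a TPM value per gene, scaled for transcript length and library total. Of 55385 identifiers, 55144 matched GENCODE M21 without and 54487 with their version, which gave symbols and coordinates.

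The rounded estimated counts went into the quasi-likelihood test of edgeR 4.0.16 under R 4.3.3, after filterByExpr and TMM scaling (factors 0.871 to 1.12). The 4 groups were fitted together with 12 residual degrees of freedom, and p-values were adjusted by Benjamini-Hochberg over 17222 genes. SEs are the fold change divided by the root of the F statistic. Ratios were tested by exact permutation (scipy 1.17.1). Total counts were 28912697 to 29586355 per library, of which mitochondrial genes took 2.73% to 6.60%. Every pair of libraries of a group differed by more than counting error (chi-square over its degrees of freedom, 7.88 to 44.5), and the study calls them independent neuronal preparations.

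Members, partners and markers were chosen with earlier results of these data known. Partners were named where called, or the 6 most changed where more were called. The values of 1 called partner are not reported here. Groups share replicate numbers, and the methods do not say whether a number marks a preparation. Same-numbered libraries deviated together (Pearson's r over genes, which are not independent) with 0.142 to 0.221 for bicuculline in Control-shRNA and 0.204 to 0.355 for the knockdown at baseline. These values are above 0.1 for every number, so the libraries were taken as paired there when the replicate block was read as an alternative. The main fit held no block in any comparison, and the ratio tests were unpaired. Spread that follows the replicate number therefore stays in the SEs of the main fit. For Grik3 with bicuculline in Control-shRNA the SE was 0.14 in the main fit and 0.06 with the block. Alternatives were voom with limma 3.58.1, the test of the study, DESeq2 1.42.0, other scalings and filters, limma on log2(TPM + 1) and log2(TPM + 0.1), a replicate block, fits of 2 groups, and each library left out.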

Additional observations from a re-analysis of the deposited data

Results flagged for a closer look

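Of the 32 sets of 4 CPM values, 8 genes in 4 groups, 1 held a library far from the others, where chance gives about 1 in 20. It is Grik5 in Dnmt3a1-shRNA2 with bicuculline, in which replicate 3 had 268.3 CPM and the other 3 libraries had 258.3 to 259.5 CPM. The gap makes up 0.879 of the range, above the critical value of 0.829 in Dixon's test. The group is the narrowest of the 4 for Grik5, with an SD of 4.79 CPM against 17.0 to 21.4 in the others, and its highest library still lay below all Dnmt3a1-shRNA2 baseline libraries.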

How the results depend on the processing

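The 8 member results that passed the test kept their direction in all 208 alternatives and stayed past the threshold in 201. The 7 that did not are Grik1 and Neto2 with bicuculline in Control-shRNA on log2(TPM + 0.1) (adjusted p = 0.0590 and 0.0592), Neto1 between the shRNAs with bicuculline on TPM (0.230 and 0.252), and Grik5 with bicuculline in Dnmt3a1-shRNA2 without low-count filter (0.0527) and without 2 single libraries. Of 824 alternatives for the 32 other results, 764 kept side and direction, 14 passed and 46 turned sign. With SEs of 0.05 to 0.14 in the main fit, which held no block, a change near 0.1 was not resolved for most of the genes. The cause of no change listed here was tested. The replicate block changed no call in the 2 comparisons taken as paired. In the others, where r of replicate 4 was 0.0631 and 0.0667, the block gave 2 members that passed between the shRNAs with bicuculline (Grik2, adjusted p = 0.0479, beside Neto1), and Grik3 (0.00789) and Grik4 (0.0146) passed with bicuculline in Dnmt3a1-shRNA2. In the bicuculline contrast of Control-shRNA, called members went from 0 to 1 with DESeq2, with its size factors and with at least 10 counts, and to 2 without a fold threshold, and passing members from 2 to 5 with library sizes only and 4 on log2(TPM + 1). In Dnmt3a1-shRNA2 called members went from 2 to 0 with library sizes only and on both TPM scales, and to 4 without a fold threshold. Between the shRNAs called members went from 0 to 1 on both TPM scales at baseline and without a fold threshold in both conditions, and with bicuculline passing members went from 1 to 0 on both TPM scales. Scaling by library sizes made 69.0% and 67.2% of bicuculline calls and 85.8% and 80.8% of knockdown calls downward (Control-shRNA and Dnmt3a1-shRNA2, baseline and bicuculline), against 50.8%, 51.1%, 69.8% and 66.1%. With DESeq2 the interaction count was 18 genes, with no low-count filter or with the block 3, against 0. With the block, 1564 genes had an unadjusted p under 0.05, Grid1 alone among the members (adjusted p = 0.518). In none of the 4 comparisons did every library correlate best with its own number.

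Signs turned for results that had not passed. With library sizes only these were Grik2 (-0.15) and Neto1 (-0.034) with bicuculline in Control-shRNA, Grik2 (-0.12) and Neto1 (-0.0060) in Dnmt3a1-shRNA2, Grik5 (-0.074) and Neto2 (-0.0084) under the knockdown at baseline and Grik1 (-0.029) with bicuculline. On TPM + 1 and TPM + 0.1 they were Grik2 (-0.063 and -0.065) with bicuculline in Control-shRNA, Grik5 (both -0.13) and Neto2 (-0.060 and -0.061) under the knockdown at baseline and Grik1 (-0.041 and -0.042) with bicuculline. Grik2 with the block gave -0.0012, and Grik5 at baseline gave -0.00253 with at least 10 counts and -0.0055 with 2 groups fitted. The Grik4 to Grik5 ratio on TPM was 0.018 with bicuculline in Dnmt3a1-shRNA2 and 0.036 under the knockdown with bicuculline. By estimated counts, in the order Control-shRNA baseline and bicuculline, Dnmt3a1-shRNA2 baseline and bicuculline, Grik1 held 8.60%, 11.9%, 8.29% and 12.8%, Grik3 18.5%, 17.1%, 17.9% and 16.3%, and Grik5 52.7%, 51.1%, 52.4% and 48.9%, while Grik2 held 12.8% and 14.2% in the 2 baseline groups and Grik4 7.16% in Dnmt3a1-shRNA2 at baseline.

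Leaving out each library in turn, called members ranged from 0 to 2 with bicuculline in Control-shRNA, from 1 to 2 in Dnmt3a1-shRNA2, and from 0 to 1 under the knockdown at baseline. With bicuculline, Grik2 ranged from -0.068 to 0.083 in Control-shRNA and from -0.050 to 0.11 in Dnmt3a1-shRNA2. Under the knockdown at baseline, Grik1 ranged from -0.070 to 0.015, Grik3 from -0.15 to 0.064, Grik4 from -0.13 to 0.028, Grik5 from -0.027 to 0.036 and Neto2 from -0.0041 to 0.12. In the interaction, Grik2 ranged from -0.061 to 0.099, Grik3 from -0.20 to 0.014 and Neto1 from -0.056 to 0.16. The Grik4 to Grik5 ratio ranged from -0.13 to 0.072 with bicuculline in Control-shRNA, from -0.084 to 0.043 in Dnmt3a1-shRNA2, and from -0.11 to 0.0055 and from -0.14 to 0.066 under the knockdown at baseline and with bicuculline, and Grik3 to Grik2 from -0.27 to 0.056 with bicuculline in Control-shRNA. In the order of TPM, 0 to 2 genes changed rank in the baseline groups, 0 to 4 in Control-shRNA with bicuculline and 2 in Dnmt3a1-shRNA2 with bicuculline.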
